A study of Mus musculus with 13 samples.

Results

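The genes described here are 8 transcription factors of glandular epithelium, namely Tbx3, Bhlha15 (whose protein is called Mist1), Elf5, Ehf, Tfcp2l1, Grhl2, Sox10 and Nfib. They were taken by gene symbol from the deposited normalised table, in which they are 8 of 17957 entries, and all 8 passed the filter on low counts. The 13 RNA-seq libraries came from the submandibular gland of mice, which is among the major salivary glands. The NonIR group held 3 libraries of mice that were not irradiated. The IR_GFP group held 5 libraries of irradiated mice given AAV2-GFP, an adeno-associated virus vector for green fluorescent protein. The IR_NTN group held 5 libraries of irradiated mice given Cere-120, the AAV2-NRTN vector for the growth factor neurturin. Vector was given 10 days before irradiation and glands were taken at 300 days, all from mice of 1 year whose strain is written CH3. The labels do not say whether NonIR mice were given any vector, so irradiation and vector cannot be told apart in comparisons with NonIR. The question that the groups address is how irradiation with a control vector, and neurturin given before it, bear on gene expression in the gland.

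As background, secretory acini and the ducts that drain them are kept in their differentiated state by transcription factors. Mist1 is a basic helix-loop-helix factor of serous secretory cells that binds E-box sequences and organises the secretory apparatus. Tbx3 is a T-box repressor with roles in gland development. Elf5 and Ehf are ETS factors of epithelium, Grhl2 and Tfcp2l1 belong to the grainyhead and CP2 family that supports junction and duct programmes, Sox10 marks acinar, myoepithelial and glial cells, and Nfib is a nuclear factor I protein.

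The 8 genes were chosen by symbol with earlier results of these 3 contrasts known, so the log2 fold changes between groups count as values they were selected on. Differences between groups are therefore given as a description, and the counts of calls among the 8 support nothing. Levels are CPM, read counts divided by the library total in units of 1e6 reads and scaled by the TMM method (trimmed mean of M values). A fold change is the log2 ratio of group levels from an edgeR fit, with its standard error (SE). The SD is over the libraries of a group, and the labels do not tie libraries to separate animals. Library totals ran from 9724301 to 16771003 reads. The first IR_GFP library stood apart: its TMM factor was 1.421 against 0.7675 to 1.236 in the other 12, and its 10 most abundant genes took 29.73% of reads against 37.2% to 55.51%. That library is written IR_GFP 1, and log2 fold changes that rest on it are given without it too. No read lay on the entries for EGFP or AAV2 in any of the 13 libraries, so the vector labels have no check in the counts.

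Cell type markers showed an epithelial gland in every library. The summed level of 6 pan-epithelial markers (Krt8, Krt18, Cldn7, Spint1, Spint2 and St14) was 923 to 1120 CPM in NonIR, 822 to 973 in IR_GFP and 893 to 1080 in IR_NTN. The 10 acinar markers in the table, of 11 listed, summed to 161000 to 216000 CPM, 78900 to 137000 and 107000 to 194000 in the same order of groups. In NonIR most of that sum was a single gene, Smgc, at 119000 ± 35900 CPM. Smgc was at 39400 ± 14600 CPM in IR_GFP and 78700 ± 44200 in IR_NTN. In IR_GFP the acinar marker Prol1 had a higher mean than Smgc, at 42800 ± 15000 CPM. Of the 10 acinar markers, 7 had a log2 fold change above 0 in IR_GFP against NonIR (median 0.12), such as Bpifa2 at 0.85 (edgeR adjusted p = 0.486), and Smgc was at -1.60 (edgeR adjusted p = 0.360). The 8 striated duct markers summed to 347 to 384, 253 to 339 and 252 to 341 CPM, and the 5 granular tubule markers to 23800 to 28200, 12000 to 28200 and 17800 to 23600 CPM. In whole glands, fewer cells of a type and less RNA per cell cannot be told apart.

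The factors were abundant but unequal per length. Levels per length are CPM per kb of exon, the exon union of the GENCODE M21 annotation on GRCm38. The order of the genes depends on that choice of length. The longest transcript of Grhl2 has 4947 bases against 8613 in the union, and that of Sox10 2780 against 3051. For Nfib these are 9116 and 14957 bases. No order by transcript length was computed. In NonIR, Tfcp2l1 was highest at 66.48 ± 6.67 (SD, n = 3) CPM per kb, above 97.1% of the genes tested. Bhlha15 followed at 53.69 ± 5.06, Ehf at 41.36 ± 7.03 and Nfib at 40.74 ± 4.98 CPM per kb. Elf5 stood at 25.07 ± 6.63, Tbx3 at 19.17 ± 3.98, Sox10 at 8.62 ± 1.77 and Grhl2 at 5.521 ± 0.187 CPM per kb, the last above 70.6% of genes tested. Neighbours in this order whose NonIR libraries overlapped were Bhlha15 and Ehf, Ehf and Nfib, and Elf5 and Tbx3. Sox10 was above Grhl2 in all 13 libraries, whereas Tfcp2l1 was above Bhlha15 in 7 of 13 and Tbx3 above Sox10 in 8 of 13.

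**Figure D1:**
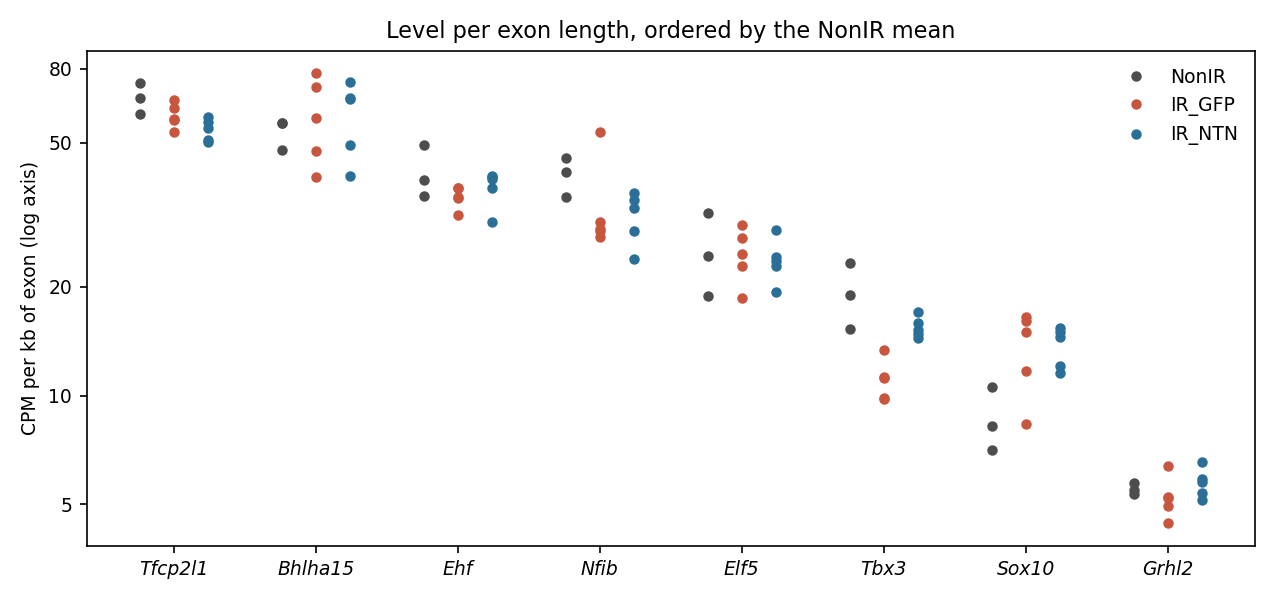
CPM per kb of exon (log axis) of the 8 factors in each library, coloured by group and ordered by the NonIR mean. Points of Tbx3 and Sox10 overlap in the irradiated groups but not in NonIR, and Grhl2 lies below Sox10 in every library.

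The promoters of the top pair in that order, Tfcp2l1 and Bhlha15, are shown because Mist1 belongs to the factors that bind E-boxes. These are the 250 bases before the annotated start on the plus strand of GRCm38.p6, from RefSeq, at chr1:118627695-118627944 and chr5:144190036-144190285. Capitals mark each match to the E-box letters CANNTG, which read the same on both strands.
Tfcp2l1: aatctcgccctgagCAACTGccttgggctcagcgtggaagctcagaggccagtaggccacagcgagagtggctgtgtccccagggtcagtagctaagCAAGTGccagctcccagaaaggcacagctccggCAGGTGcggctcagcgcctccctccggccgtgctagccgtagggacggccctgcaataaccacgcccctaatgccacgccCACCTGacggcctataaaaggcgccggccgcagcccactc
Bhlha15: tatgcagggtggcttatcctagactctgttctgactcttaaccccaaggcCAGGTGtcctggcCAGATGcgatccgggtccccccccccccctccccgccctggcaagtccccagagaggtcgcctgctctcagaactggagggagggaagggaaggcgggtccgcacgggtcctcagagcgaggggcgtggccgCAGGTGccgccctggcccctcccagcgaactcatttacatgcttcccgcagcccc
The Tfcp2l1 window held 4 matches and the Bhlha15 window 3, and 66.2% of 32851 windows of the same length held at least 1, with a median of 1.0. The E-boxes CAGCTG and CATATG, which 13% and 3.46% of windows held, had no match in either window. Nor had AACCGGTT (grainyhead, 0.116% of windows), AGGTGTGA (T-box, 1.12%), CCGGAAG (ETS, 6.91%) or the nuclear factor I palindrome (0.0365%), each searched on both strands. A match describes letters only.

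Tbx3 had the largest difference among the 8 genes in the comparison of IR_GFP with NonIR. It lies at chr5:119670669-119684724 on the plus strand of GRCm38. Its level was 101.2, 153.8 and 125.9 CPM in NonIR. In IR_GFP it was 88.25, 64.67, 65.37, 74.58 and 74.18 CPM, from 836 to 1248 reads a library, and all 5 libraries lay below every NonIR library. In IR_NTN it was 100.2, 105.0, 95.64, 97.8 and 112.9 CPM, all 5 above every IR_GFP library, and these overlapped the lowest NonIR library. The means were 127.0 ± 26.3 (SD, n = 3), 73.41 ± 9.53 (SD, n = 5) and 102.3 ± 6.85 (SD, n = 5) CPM.

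The log2 fold change of Tbx3 was -0.79 (SE 0.14) in IR_GFP against NonIR, a ratio of 0.578. Leaving out each library in turn moved it between -0.92 and -0.63. It was 0.48 (SE 0.12) in IR_NTN against IR_GFP, a ratio of 1.39, and between 0.44 and 0.58 with each library left out. In IR_NTN against NonIR it was -0.31 (SE 0.14), and -0.15 without NonIR 2, the highest library. The last comparison shares its groups with the other two, so the 3 values are not independent. Groups without overlap were found for 5.14% of the 14727 genes tested in IR_GFP against NonIR, 2.27% with IR_GFP lower, and for 1.11% in IR_NTN against IR_GFP, 0.394% with IR_NTN higher. Without IR_GFP 1 the values of Tbx3 were -0.88 (SE 0.14) and 0.58 (SE 0.13) in those comparisons.

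**Figure D2:**
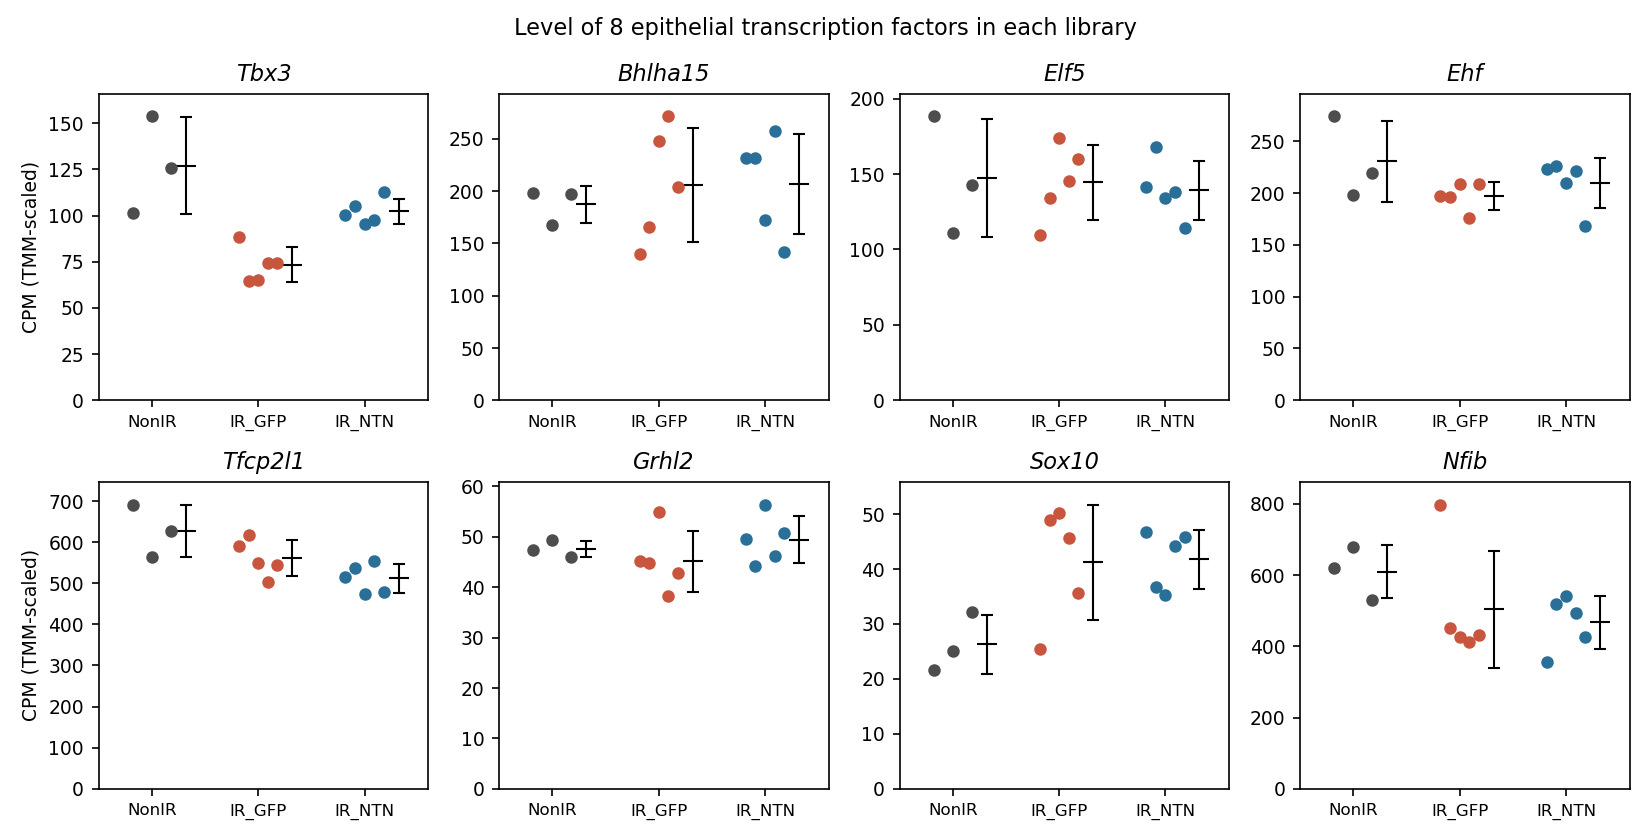
Level in CPM of each of the 8 factors in every library (points) by group, with the group mean and SD (bar) at the right of each group and axes from 0. Tbx3 in IR_GFP lies between 64.67 and 88.25 CPM, below all NonIR libraries, and Nfib in IR_GFP 1 stands at 797.8 CPM, above all others.

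Reads of Tbx3 cannot be fully separated from those of Tbx3os1, an antisense gene whose exons overlap it, since the library kit does not mark strand. Tbx3os1 was at 13, 28.1 and 28.27 CPM in NonIR, at 7.397, 15.97, 20.17, 31.69 and 18.19 in IR_GFP, and at 19.64, 25.04, 26.8, 31.97 and 55.36 in IR_NTN. Its groups overlapped, with log2 fold changes of -0.31 (SE 0.43), 0.76 (SE 0.38) and 0.46 (SE 0.44) in IR_GFP against NonIR, IR_NTN against IR_GFP and IR_NTN against NonIR. With the reads of both genes summed, the values were -0.70, 0.54 and -0.16 in the same order. Over the 13 libraries the log2 levels of the pair had Pearson's r = 0.35 (permutation p = 0.24) and Spearman's rho = 0.43 (permutation p = 0.143), with r = 0.28 without the 2 libraries farthest from the median of Tbx3.

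**Figure D3:**
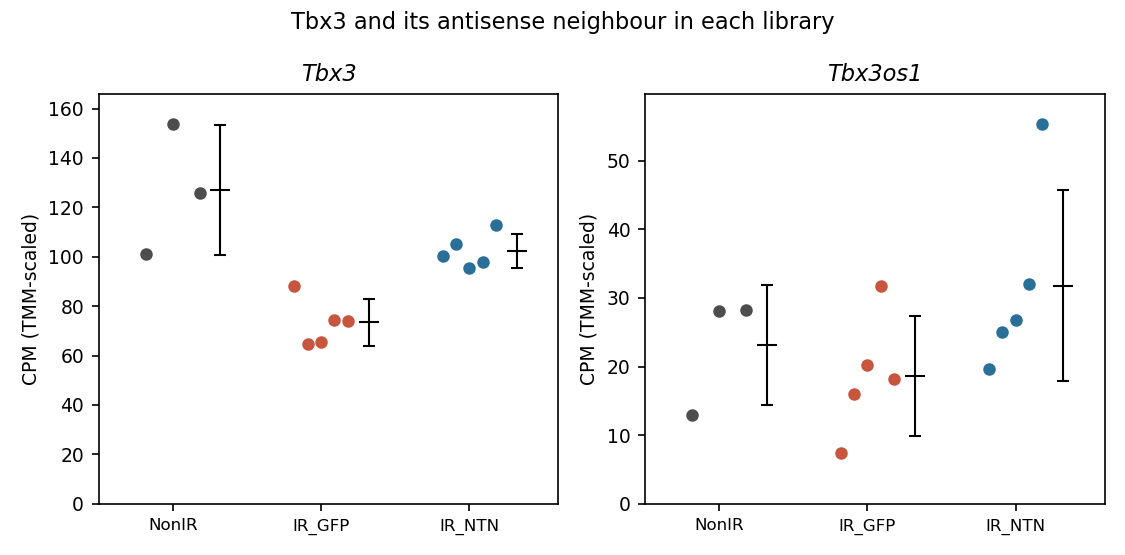
Tbx3 (left) and the antisense gene Tbx3os1 (right) in CPM for each library by group, with mean and SD as bars and axes from 0. Tbx3 separates IR_GFP from the other groups, while the groups of Tbx3os1 overlap.

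Markers of ducts and of other cell types are given beside Tbx3, and their part in its values was not tested. Of the 8 striated duct markers, all 8 had a log2 fold change below 0 in IR_GFP against NonIR, with a median of -0.20, and 0 passed the edgeR test. In IR_NTN against IR_GFP, where Tbx3 was at 0.48, 2 of these 8 were above 0 and the median was -0.09. Of 5 granular tubule markers 4 were below 0 in the first comparison (median -0.75) and 4 above 0 in the second (median 0.24), again with 0 called. At an unadjusted edgeR p under 0.05 there were 2 and 1 of the 8 striated duct markers and 1 and 0 of the 5 granular tubule markers in these 2 comparisons, and 8.78% and 6.08% of all genes tested.

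Immune and stromal markers are given for the same comparisons. All 5 macrophage markers were above 0 in IR_GFP against NonIR (median 0.66) and below 0 in IR_NTN against IR_GFP (median -0.66), with sums of 63.3 to 73.0 CPM in NonIR, 72.2 to 157 in IR_GFP and 46.2 to 62.9 in IR_NTN. All 4 B and plasma cell markers were above 0 in the first comparison (median 1.11) and below 0 in the second (median -1.20), with sums of 68.5 to 456, 69.4 to 1220 and 16.7 to 225 CPM. Jchain made up most of these sums, at 199 ± 219 CPM in NonIR, 534 ± 425 in IR_GFP and 103 ± 87.7 in IR_NTN. Ms4a1 had at most 24 reads in a library. Neither list had a gene called by edgeR, with 3 and 4 macrophage and 1 and 3 B and plasma cell markers at an unadjusted p under 0.05. All 7 fibroblast markers were below 0 in IR_NTN against IR_GFP (median -0.69), and Dpt, the dermatopontin gene of the extracellular matrix, passed at -1.33 (edgeR adjusted p = 0.0175). The 4 skeletal muscle markers summed to 1.85 to 2.29 CPM in NonIR, 1.96 to 180 in IR_GFP and 1.47 to 3.28 in IR_NTN. The upper end in IR_GFP came from a single library, as for Acta1, with a mean of 16.4 ± 36.1 CPM and a maximum of 80.9.

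Bhlha15, which encodes Mist1, did not separate the groups. It lies at chr5:144190286-144194441 on the plus strand and was at 198.0, 167.2 and 197.5 CPM in NonIR. In IR_GFP the libraries stood at 140.1, 165.6, 248.3, 271.7 and 203.9 CPM, and in IR_NTN at 232.0, 231.3, 172.0, 257.7 and 141.6 CPM. Both irradiated groups ran from below the lowest to above the highest NonIR library, and the SD was 17.7 CPM in NonIR against 54.9 and 48.2. The log2 fold changes were 0.13 (SE 0.22) in IR_GFP against NonIR, 0.01 (SE 0.19) in IR_NTN against IR_GFP and 0.14 (SE 0.22) in IR_NTN against NonIR. Leaving out single libraries gave 0.02 to 0.23, -0.08 to 0.13 and 0.05 to 0.25. The approximate 95% interval of the first difference, -0.29 to 0.56, does not show that the levels were equal.

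Known targets of Mist1 had 5 of 6 listed genes tested, and 0 passed in any of the 3 comparisons. Gjb1, which encodes a gap junction protein of acinar cells, was at 93.3 ± 5.73 CPM in NonIR, 67.5 ± 13 in IR_GFP and 78.9 ± 13.7 in IR_NTN, with at -0.47 on the log2 scale in IR_GFP against NonIR (edgeR adjusted p = 0.449). Atp2c2, a secretory pathway calcium pump, was at -1.13 (edgeR adjusted p = 0.542) from at most 21 reads a library. The secretory vesicle GTPase gene Rab3d was at 0.08 (SE 0.13). Between the irradiated groups, with IR_NTN against IR_GFP, Gjb1 was at 0.22 and Atp2c2 at 0.57 (edgeR adjusted p = 0.894 and 0.934).

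The ETS pair Elf5 and Ehf are neighbours on chromosome 2, 108.4 kb apart with 0 annotated protein-coding genes between them. Elf5 (chr2:103411688-103450989, plus strand) was at 188.3, 110.8 and 142.8 CPM in NonIR, at 109.4, 134.3, 173.9, 145.1 and 159.7 in IR_GFP, and at 141.7, 168.2, 133.9, 138.2 and 113.9 in IR_NTN. The NonIR libraries spanned nearly the whole range, and the log2 fold changes were -0.03 (SE 0.18), -0.05 (SE 0.16) and -0.08 (SE 0.18) in IR_GFP against NonIR, IR_NTN against IR_GFP and IR_NTN against NonIR. The first was 0.20 without NonIR 1 and -0.20 without NonIR 2, and the third 0.15 and -0.25.

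Ehf (chr2:103263433-103303278, minus strand) was at 274.1, 198.0 and 219.8 CPM in NonIR, at 197.2, 196.5, 209.1, 176.0 and 208.8 in IR_GFP, and at 223.6, 226.2, 209.4, 221.6 and 168.1 in IR_NTN. The groups overlapped, with 4 of 5 IR_NTN libraries above every IR_GFP library and IR_NTN 5 below them all. The log2 fold changes were -0.22 (SE 0.13), 0.09 (SE 0.12) and -0.14 (SE 0.13). NonIR 1, the highest library, set much of the comparisons with NonIR, which were -0.07 and 0.02 without it.

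Among 5 other ETS factors, 0 were called in any comparison. Spdef, a factor of mucous cells, was at 11.8 ± 3.11 CPM in NonIR and 18.1 ± 5.58 in IR_GFP, which is 0.61 on the log2 scale (edgeR adjusted p = 0.499). Elf4 was at 1.19 (edgeR adjusted p = 0.540) from at most 20 reads a library. Elf4 was at -0.49 and Elf2 at -0.09 in IR_NTN against IR_GFP (edgeR adjusted p = 0.940 and 0.991). Elf3, an epithelial member of the same subfamily as Elf5 and Ehf, stood at 31.1 ± 0.944 CPM in NonIR and 27.1 ± 4.19 in IR_GFP.

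Tfcp2l1, a CP2 family factor of ducts, showed the narrowest range of the 8 genes, a ratio of 1.46 between its highest and lowest library, with Grhl2 next at 1.47. It was at 691.0, 565.0 and 626.4 CPM in NonIR (chr1:118627945-118685168, plus strand). In IR_GFP it was at 589.6, 617.5, 548.7, 503.7 and 545.5 CPM and in IR_NTN at 516.4, 538.1, 474.1, 554.3 and 479.3 CPM. All 5 IR_NTN libraries were below every NonIR library, where 3.3% of genes tested had IR_NTN lower without overlap and 6.52% had no overlap in either direction. The log2 fold changes were -0.16 (SE 0.11) in IR_GFP against NonIR, -0.13 (SE 0.10) in IR_NTN against IR_GFP and -0.29 (SE 0.11) in IR_NTN against NonIR. Without NonIR 1 the first was -0.07 and the third -0.20. Beside it, the 8 striated duct markers were all below 0 in IR_NTN against NonIR, with a median of -0.26 and 0 called, and their part in the value was not tested.

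Grhl2, which supports epithelial junctions, was the lowest of the 8 per kb of the exon union. It lies at chr15:37233036-37363569 on the plus strand and was at 47.29, 49.28 and 46.09 CPM in NonIR, at 45.18, 44.74, 54.89, 38.23 and 42.74 in IR_GFP, and at 49.54, 44.22, 56.37, 46.26 and 50.76 in IR_NTN. The 3 NonIR libraries lay inside the range of both irradiated groups. The log2 fold changes were -0.07 (SE 0.13), 0.13 (SE 0.11) and 0.06 (SE 0.13). Exons of the antisense gene Gm16136 overlap Grhl2, so that reads of this pair cannot be fully separated either. The level of Gm16136 was 72.58 ± 6.37 CPM in NonIR, 57.35 ± 12.5 in IR_GFP and 62.28 ± 8.16 in IR_NTN. All 5 IR_GFP libraries of Gm16136 lay below every NonIR library, with a log2 fold change of -0.34 (SE 0.17). The nearest libraries almost met, at 67.64 CPM in IR_GFP 4 and 68.02 in NonIR 2. Of all genes tested, 2.27% had IR_GFP lower without overlap and 5.14% had no overlap in either direction.

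Relatives and targets of Grhl2 gave 0 calls. All 4 CP2 and grainyhead relatives were tested, and Ubp1 was at 0.39 and Tfcp2 at 0.18 in IR_GFP against NonIR (edgeR adjusted p = 0.538 and 0.848). Among 6 known Grhl2 targets, the tight junction gene Cldn4 was at -0.46 and the epithelial factor Ovol2 at 0.37 (edgeR adjusted p = 0.672 and 0.711). Cdh1, which encodes E-cadherin, stood at 71.7 ± 6.71 CPM in NonIR and 66.5 ± 6.39 in IR_GFP. Esrp1 was at -0.14 and Epcam at 0.13 in IR_NTN against IR_GFP (edgeR adjusted p = 0.909 and 0.938).

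Sox10 was higher in most irradiated libraries. It lies at chr15:79154908-79165240 on the minus strand. It was at 21.56, 25.15 and 32.2 CPM in NonIR, from 298 to 394 reads. In IR_GFP it was at 25.38, 48.96, 50.2, 45.72 and 35.72 CPM, so 4 of 5 libraries were above every NonIR library and IR_GFP 1 was not. In IR_NTN it was at 46.82, 36.78, 35.27, 44.23 and 45.84 CPM, all 5 above every NonIR library, where 3.22% of genes tested had IR_NTN higher without overlap. The log2 fold changes were 0.65 (SE 0.21), 0.02 (SE 0.18) and 0.67 (SE 0.21) in IR_GFP against NonIR, IR_NTN against IR_GFP and IR_NTN against NonIR, and both comparisons with NonIR share the same 3 NonIR libraries. Without IR_GFP 1 they were 0.77 (SE 0.17), -0.09 (SE 0.14) and 0.68 (SE 0.16).

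Sox10 is also a gene of Schwann cells, so their markers are given beside it. The 9 Schwann markers used summed to 86.5 to 88.2 CPM in NonIR, 88.5 to 126 in IR_GFP and 88.6 to 102 in IR_NTN. Foxd3 was at 0 in all 13 libraries, and the myelination genes Egr2 and Prx had at most 9 reads each in a library. Of 6 Schwann markers tested, 5 were above 0 in IR_GFP against NonIR (median 0.45) and 5 in IR_NTN against NonIR (median 0.11), with 0 called and 2 and 0 at an unadjusted edgeR p under 0.05, beside 8.78% and 7.97% of all genes tested. Their part in the Sox10 values was not tested. Basal and myoepithelial markers summed to 651 to 723, 568 to 683 and 480 to 816 CPM in NonIR, IR_GFP and IR_NTN.

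The SoxE relative Sox9, a factor of duct and progenitor cells, was at 87.9, 91.0 and 66.4 CPM in NonIR. In IR_GFP it was at 89.6 in IR_GFP 1 and at 37.2, 48.2, 39.3 and 42.6 CPM in the other 4, and in IR_NTN it was at 47.7, 69.3, 58.8, 48.7 and 54.5 CPM. The log2 fold change of Sox9 in IR_GFP against NonIR was -0.67 (edgeR adjusted p = 0.462). Without IR_GFP 1 it was -0.98 (SE 0.15) and passed the test (edgeR adjusted p = 0.0336). That fit called 17 genes in this comparison, against 5 with all 13 libraries. It leaves out the 1 IR_GFP library that lay within the NonIR range, so the call is given as a description. Sox8 was not tested, with at most 12 reads in a library.

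Nfib was set apart by a single library, IR_GFP 1. The gene lies at chr4:82290173-82705750 on the minus strand and was at 619.7, 678.1 and 530.2 CPM in NonIR. In IR_GFP it was at 797.8 CPM in IR_GFP 1 and at 452.6, 427.5, 411.0 and 431.2 CPM in the other 4, which were all below every NonIR library. In IR_NTN it was at 357.0, 517.7, 541.7, 493.2 and 427.2 CPM, with 4 of 5 below every NonIR library. With all libraries kept, both irradiated groups overlapped NonIR. The share of all genes with 4 of 5 libraries below NonIR was not computed, so nothing is read from these counts. The log2 fold changes were -0.27 (SE 0.21), -0.11 (SE 0.18) and -0.38 (SE 0.20) in IR_GFP against NonIR, IR_NTN against IR_GFP and IR_NTN against NonIR. Without IR_GFP 1 they were -0.51 (SE 0.15), 0.14 (SE 0.13) and -0.37 (SE 0.14), so the middle value turned its sign.

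All 3 other nuclear factor I genes were tested and 0 passed. In IR_NTN against IR_GFP all 3 were above 0, with Nfix at 0.45 (edgeR adjusted p = 0.622) and Nfic at 0.37 (edgeR adjusted p = 0.771), and 2 of the 3 had an unadjusted edgeR p under 0.05, as had 6.08% of all genes tested. In IR_GFP against NonIR, Nfic was at -0.29 and Nfix at -0.24 (edgeR adjusted p = 0.688 and 0.719). Nfia was at 643 ± 51.9 CPM in NonIR, 703 ± 104 in IR_GFP and 772 ± 199 in IR_NTN.

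Sox10 and Nfib varied in opposite directions from library to library. Over the 13 libraries their log2 levels had Pearson's r = -0.86 (permutation p = 0.0002, 0.0056 adjusted over 28 pairs) and Spearman's rho = -0.84 (permutation p = 0.0007, adjusted 0.0196). It was r = -0.85 without the 2 libraries farthest from the median of Sox10, NonIR 1 and NonIR 2, and -0.83 after subtracting group means. IR_GFP 1, where Nfib was highest, was kept in all these values, and none was computed without it. How far the relation within groups rests on that library was not tested. The permutations shuffled libraries across groups, so differences between groups, on which the genes were selected, enter these p-values. The value after subtracting group means was not tested. The levels of Sox10 and Nfib also varied with the base composition of the library. This was measured as the GC skew, the median log2 deviation of the 20% of genes richest in GC minus that of the 20% poorest in GC. The Sox10 transcript has 61.8% GC and the Nfib transcript 43.3%.

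The GC skew was -0.23, -0.19 and 0.24 in NonIR, -0.53, 0.04, 0.12, 0.29 and -0.08 in IR_GFP, and 0.37, -0.11, -0.20, 0.17 and 0.12 in IR_NTN. IR_GFP 1 was the lowest, and the groups overlapped. Sox10 had r = 0.74 with it (permutation p = 0.00399, adjusted over 8 genes 0.016) and rho = 0.63 (permutation p = 0.0238, adjusted 0.0952), with r = 0.67 without the 2 libraries farthest from the median. Nfib had r = -0.85 (permutation p = 0.00021, adjusted 0.00168) and rho = -0.81 (permutation p = 0.00144, adjusted 0.0115), with r = -0.66 without them. After subtracting group means, with IR_GFP 1 kept, these were 0.91 and -0.90. Bhlha15 (55.9% GC) had r = 0.60 (permutation p = 0.0315, adjusted 0.084) and rho = 0.55 (permutation p = 0.0531, adjusted 0.142). Ehf, the poorest in GC of the 8 at 42.4%, had r = -0.17 (permutation p = 0.58). Elf5, Tfcp2l1 and Grhl2 had r of 0.20, -0.28 and -0.11. Tbx3 had r = -0.10 (permutation p = 0.752) and rho = 0.00 (permutation p = 1.0).

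With GC content entered as an offset in the fit, an alternative added after the data were seen, the Sox10 log2 fold changes were 0.57 (SE 0.12), -0.08 (SE 0.10) and 0.49 (SE 0.12). Those of Nfib were -0.30 (SE 0.16), -0.05 (SE 0.14) and -0.35 (SE 0.16). Those of Tbx3 were -0.79 (SE 0.16), 0.45 (SE 0.14) and -0.35 (SE 0.16), so the first was as large as without the offset. The correlation of Sox10 with Nfib was -0.73 with the offset, and -0.62 after also subtracting group means, both with IR_GFP 1 kept.

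**Figure D4:**
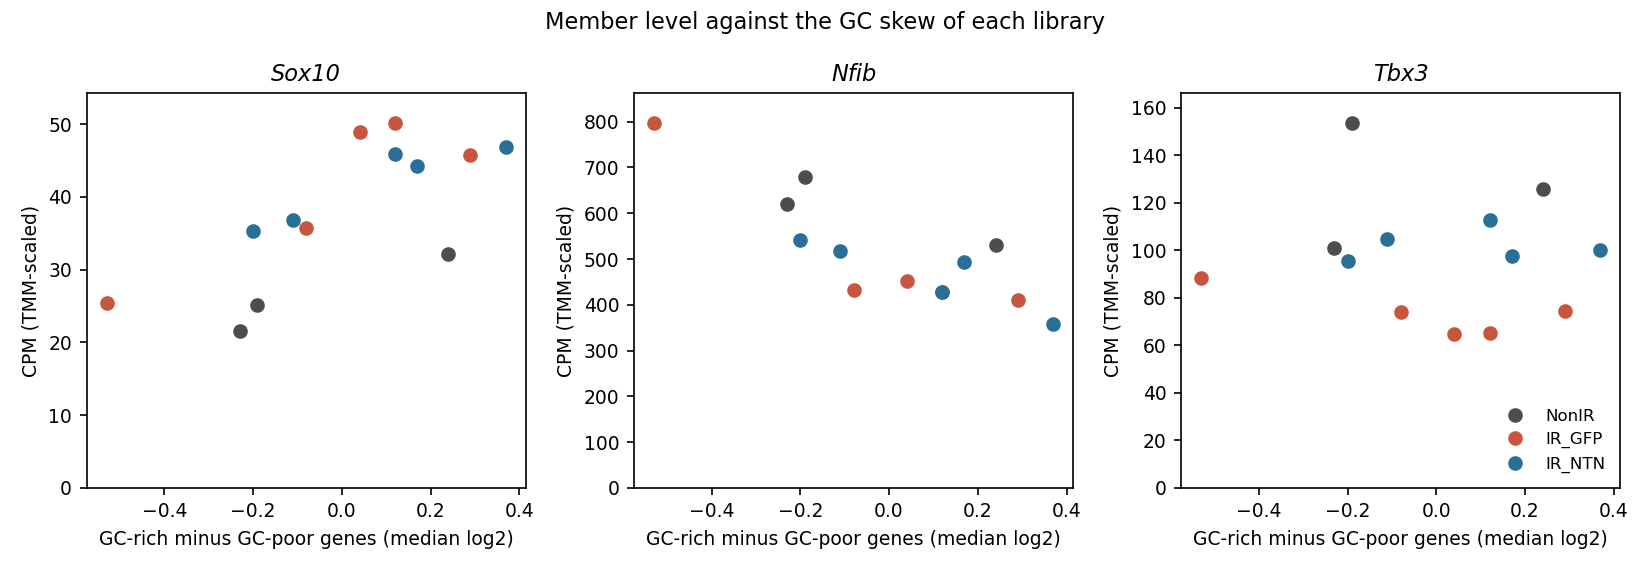
Level of Sox10, Nfib and Tbx3 (CPM, axes from 0) against the GC skew of each library (log2 of GC-rich minus GC-poor genes), coloured by group. Sox10 is higher and Nfib lower in libraries of higher skew (r = 0.74 and -0.85), while Tbx3 has r = -0.10.

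Of the other pairs among the 28, none had an adjusted p under 0.05. Bhlha15 and Elf5 had r = 0.66 (permutation p = 0.0142, adjusted 0.133) and rho = 0.67 (permutation p = 0.0143, adjusted 0.2), with r = 0.43 without the 2 farthest libraries and 0.69 after subtracting group means. The neighbours Elf5 and Ehf had r = 0.66 (permutation p = 0.0126, adjusted 0.133) and rho = 0.54 (permutation p = 0.0587, adjusted 0.362), with r = 0.51 without them and 0.75 after subtracting group means. Tbx3 and Bhlha15 had r = -0.27 (permutation p = 0.364, adjusted 0.603) and rho = -0.21 (permutation p = 0.494, adjusted 0.692), with r = -0.37 without them and -0.42 after subtracting group means. For Tbx3 and the ETS pair, r was -0.77 with Elf5 and -0.66 with Ehf after subtracting group means, against -0.37 and 0.14 before, given as a description with no test of the centred values.

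Genes most like Tbx3 and Bhlha15 were found by Pearson correlation of log2 CPM over the 13 libraries among 8913 genes with a mean of at least 5 CPM. They are a description with no test, and the libraries share depth and base composition. For Tbx3 they were Rbfox2 (r = 0.87), Kcnk5 (0.86), Rgl2 (0.86), Vwf (0.84) and Gon7 (0.84), with 0.49 to 0.69 after subtracting group means. Kcnk5, a potassium channel gene, stood at 34.1 CPM in NonIR, 21.9 in IR_GFP and 28.2 in IR_NTN. Vwf, the endothelial von Willebrand factor gene, stood at 14.1, 5.86 and 7.95 CPM. Its log2 fold change was -1.27 in IR_GFP against NonIR and 0.44 in IR_NTN against IR_GFP. The other endothelial markers listed did not share this course. Pecam1, Kdr and Cdh5 were at 0.12, 0.31 and -0.03 in the first comparison and at -0.20, -0.44 and -0.47 in the second. For Bhlha15 they were Ccdc71 (0.90), Gga3 (0.90), Myo1c (0.89), Tent5b (0.89) and Usp4 (0.88), with 0.91 to 0.96 after subtracting group means. Group means of Myo1c, an unconventional myosin gene, were 137, 127 and 129 CPM in NonIR, IR_GFP and IR_NTN, and those of Tent5b were 12.4, 17.9 and 16.2 CPM.

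**Figure D5:**
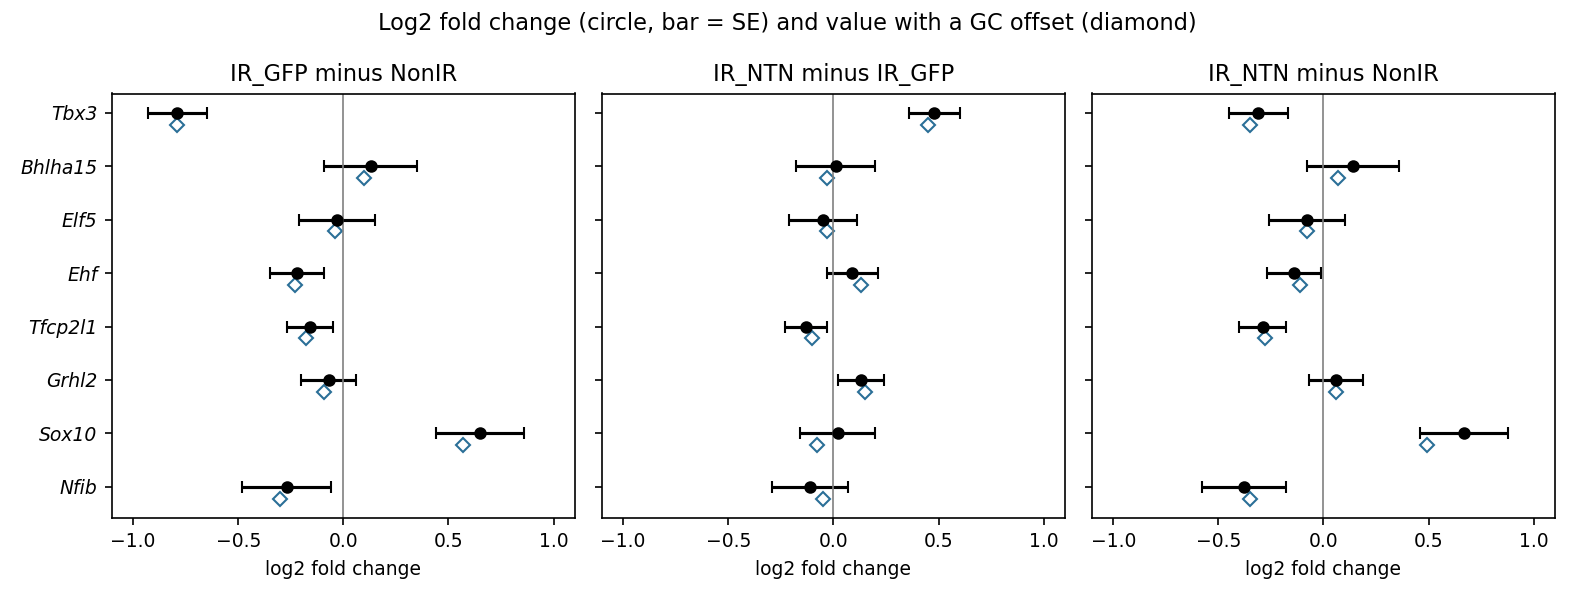
Log2 fold change of the 8 factors in the 3 comparisons, with the SE as bars (circles) and the value with a GC offset (diamonds). Tbx3 at -0.79 and Sox10 at 0.65 lie farthest from 0 in IR_GFP against NonIR, and Tbx3 alone lies beyond 0.4 in IR_NTN against IR_GFP.

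For the set of 8, in IR_GFP against NonIR 6 of 8 were below 0 with a median log2 fold change of -0.12, against 47.3% and 0.02 over all genes tested. In IR_NTN against IR_GFP 3 of 8 were below 0 with a median of 0.01, against 52.7% and -0.01, and in IR_NTN against NonIR 5 of 8 with a median of -0.11, against 49.5% and 0.00. None of the 8 passed an adjusted p of 0.05 by edgeR in any of the 3 comparisons, in which 0.034%, 0.0204% and 0.0204% of genes tested did, so nothing is read from these counts.

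Of 66 listed relatives, partners, targets and other glandular factors 55 were tested, and edgeR, DESeq2 and limma-voom each called 0 in every comparison. At an unadjusted edgeR p under 0.05 there were 11, 2 and 6 of the 55, which is to be read against 8.78%, 6.08% and 7.97% of all genes tested. The T-box relatives Tbx2, Tbx4 and Tbx5 were too low to test, with at most 11, 1 and 1 reads in a library. Of 7 listed E proteins and Id inhibitors, which pair with or block helix-loop-helix factors such as Mist1, 6 were tested, with Tcf3 at 0.42 and Id2 at -0.17 in IR_GFP against NonIR (edgeR adjusted p = 0.716 and 0.739).

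Among 25 tested factors of other glandular programmes, 17 were above 0 and 8 below in IR_GFP against NonIR, with a median of 0.08. Esrrg, an orphan nuclear receptor, was at 40.5 ± 10.6 CPM in NonIR, 27.3 ± 0.827 in IR_GFP and 31.6 ± 2.54 in IR_NTN, which is -0.57 on the log2 scale (edgeR adjusted p = 0.233). Creb3l2, a membrane-bound factor of the secretory pathway, was at 55.5 ± 2.76, 93.1 ± 28.0 and 81.4 ± 23.5 CPM, at 0.75 (edgeR adjusted p = 0.375). Etv5, an ETS factor downstream of growth factor signalling, was at 0.75 in IR_NTN against NonIR (edgeR adjusted p = 0.535). In IR_NTN against IR_GFP the lowest p-values were those of Ets2 at 0.29 and Six4 at -0.32 (edgeR adjusted p = 0.865 and 0.876).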

How the data were processed

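SMART-Seq v4 cDNA was made into Nextera XT libraries for a NextSeq instrument, per the labels' protocols. The submitters' processing notes name STAR 2.5.2a, the build GRCm38.p3 (mm10), limma, edgeR and DESeq2, and neither the labels nor the notes name a counting tool. The authors deposited a table of raw counts per gene for 48709 genes and a second table of normalised signal. The deposited signal equalled the counts times 1 constant per library (largest relative deviation 9.77e-15) and lay within 0.9897 to 1.006 of the CPM computed here. The series description names another instrument, other aligners and triplicates, and the sample labels were followed.

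Counts were fitted with edgeR 4.0.16 in R 4.3.3 (filterByExpr, TMM, robust quasi-likelihood, 14727 genes, Benjamini-Hochberg over all genes, threshold 0.05) with 1 mean per group over 13 libraries. The biological coefficient of variation was 0.265. Entries that name no gene held 2.46e-05% of reads and were left out. Correlations used 100000 permutations of all 13 libraries without regard to group, two-sided. Correlations after subtracting group means were not tested. GC content came from the longest transcript of 99.74% of genes tested. RefSeq promoters matched 3 of 8 members; 1 lay inside its gene and was not printed. Beside the 9 Schwann cell markers used, 1 more is not reported here. The scripts were tested on simulated data. The 8 members, the gene lists and the tests were chosen with earlier results of these data known. Related genes named are the 2 of lowest unadjusted p per list and comparison, or those of plain reference. Alternatives were RLE size factors, DESeq2, limma-voom, no filter, a filter of 1 CPM in 3 libraries, only the groups compared, limma on log2 of the deposited values with pseudocounts of 0.5 and 2, a replicate block, each library left out, and, added after the data were seen, GC and transcript length offsets and Tbx3 with Tbx3os1 reads summed.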

Additional observations from a re-analysis of the deposited data

Results flagged for a closer look

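Single libraries stood far from the rest of their group for 2 of 16 gene and group combinations of 5 libraries checked with Dixon's 95% criterion, where chance flags about 1 in 20. Nfib in IR_GFP 1 was at 797.8 CPM, with the next library at 452.6 and a gap of 0.893 of the range. Ehf in IR_NTN 5 was at 168.1 CPM, with the next library at 209.4 and a gap of 0.712 of the range.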

How the results depend on the processing

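The sign held in every alternative run for 17 of 24 combinations of the 8 genes and 3 comparisons. Of 25 alternatives 4 called Tbx3 in IR_GFP against NonIR (DESeq2, no low-count filter, without IR_GFP 1 and the transcript length offset), and 0 called it in the other comparisons or any other of the 8 genes, from which nothing is read since the genes were selected on these values. The count of genes called in IR_GFP against NonIR (5 by edgeR) was 73 by DESeq2, 0 by limma-voom, 20 without the low-count filter, 0 with only the 2 groups, 0 on deposited values with a pseudocount of 2, 8 with a transcript length offset and 0 to 17 with 1 library left out. In IR_NTN against IR_GFP (3) it was 38 by DESeq2, 10 without the filter, 0 with only the 2 groups, 7 with a GC offset and 0 to 11 with 1 library left out. In IR_NTN against NonIR (3) it was 31 by DESeq2, 1 by limma-voom and 0 to 4 with 1 library left out. The cause was not tested. Members below 0 were 5 of 8 with a GC offset in IR_NTN against IR_GFP (3), and with 1 library left out 2 to 5 there, 5 to 6 in IR_GFP against NonIR and 3 to 5 in IR_NTN against NonIR. Related genes called were 0 to 1 in IR_GFP against NonIR with 1 library left out. With the replicate number as a block, 0 genes were called in each comparison. Of 11 same-numbered pairs, 3 had a correlation of deviations over 0.1 (range -0.428 to 0.279). These correlations cannot show whether the numbers pair the libraries, and the main fit used no pairing. With 3 NonIR libraries, single libraries set small differences.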
